A study of Mus musculus with 19 samples.

Results

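The 9 genes described here encode the proteins that mark replication origins and load the helicase onto them: the origin recognition complex subunits Orc1, Orc2, Orc3, Orc4, Orc5 and Orc6, the loading factors Cdc6 and Cdt1, and geminin, Gmnn. They were taken by gene symbol for this role, and all 9 were among the 12527 genes tested. Expression was measured by RNA-seq in 7 libraries of preleptotene spermatocytes, the germ cells that carry out the last DNA replication before meiotic prophase. The cells came from C57BL/6 male mice that carried Ddx4-Cre and a Rosa26 tdTomato reporter, so that the sort selected the germ-cell lineage by a Cre active in germ cells. The comparison was between 3 groups, with 3 libraries from Stra8-deficient (Stra8 knock-out) mice and 2 libraries each of low-STRA8 and high-STRA8 cells, both from Stra8 heterozygous mice. The low and high groups share this genotype and were separated by STRA8 staining of a biopsy of the same mouse. The study places low-STRA8 cells early in the preleptotene stage, before meiotic initiation, and high-STRA8 cells mid or late in it, after initiation. It places the start of meiotic S phase in the middle of that stage. Low and high groups thus differ in stage, and comparisons with Stra8-deficient cells cannot separate genotype from stage. All mice of the RNA-seq and ChIP-seq experiments received WIN18,446, which blocks retinoic acid synthesis, daily from postnatal day 2 to 8, and retinoic acid on postnatal day 9. Testes were collected about 6.75 days later. For STRA8 binding, FLAG ChIP-seq was made on 3 Stra8 FLAG/FLAG and 3 wild-type mice, the latter without a tag as background. The chromatin came from whole, unsorted synchronized testes, and the tag sits at the N terminus of STRA8 and marks only its longer isoform.

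Origins are licensed in G1. The 6-subunit ORC binds origin DNA, CDC6 joins it, and CDT1 brings the MCM helicase, which is then closed around the double strand. Geminin binds CDT1 and blocks its loading activity from S phase to mitosis, so each origin fires only once. In cycling cells CDT1 is destroyed in S phase by ubiquitin ligases, and ORC1 and CDC6 also change with the cycle, whereas ORC2 to ORC5 are known as a stable core. STRA8 is a retinoic acid-induced protein of germ cells that is required for the initiation of meiosis in mice.

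Stra8 itself followed the labels, at 5.16 to 22.8 TPM (transcript abundance scaled for length and library total) in the Stra8-deficient libraries, 236 and 315 TPM in low-STRA8 and 1099 and 1248 TPM in high-STRA8 libraries. Library totals ran from 25049625 to 30015072 estimated counts, and the lowest estimated count of any licensing gene in any library was 392, for Cdc6. The 5 germ-cell markers summed to 3526 to 4582 TPM in Stra8-deficient, 2684 and 2801 TPM in low-STRA8 and 4711 and 5714 TPM in high-STRA8 libraries. Of these, Ddx4 lay between 148 and 213 TPM in all 7 libraries, whereas Tex101 was at 1636 to 2504, 563 and 715, and 1853 and 2842 TPM, and Dazl was highest in the high-STRA8 libraries, at 2027 and 2057 TPM. The 10 markers of pachytene and later stages summed to at most 5.27 TPM, with Acr listed at 0. Sertoli cell markers (10 of 10 tested) summed to 701 to 996 TPM in Stra8-deficient, 943 to 999 TPM in high-STRA8, and 1000 and 231 TPM in low-STRA8 replicates 1 and 2; none of the 10 was at 0 and 1 of 10 was called lower in low-STRA8 than in Stra8-deficient cells. Markers of undifferentiated spermatogonia summed to 52.2 to 65.0 TPM in Stra8-deficient, 16.2 and 21.1 TPM in low-STRA8 and 22.7 and 23.8 TPM in high-STRA8 libraries. Those of differentiating spermatogonia summed to 1226 to 1479, 1014 to 1103 and 941 to 1010 TPM in the same order. Those of preleptotene cells and meiotic entry, Stra8 included, summed to 1022 to 1781, 1403 to 1830 and 4167 to 4640 TPM. Macrophage and blood markers, with globin RNA the larger part, summed to 10.4 to 25.5, 45.7 to 51.6 and 1.81 to 8.46 TPM in the same order. The macrophage genes C1qa and Csf1r were at 4.24 and 2.37 TPM in Stra8-deficient replicate 3, against at most 0.31 and 0.18 TPM elsewhere. In low-STRA8 replicate 2, the library low in Sertoli markers, Orc1, Orc6, Cdc6 and Gmnn were also lower than in low-STRA8 replicate 1. Every marker of preleptotene cells and meiotic entry was lower there too by TPM. Among them were Stra8 (236 against 315 TPM), Sycp3 (709 against 899 TPM) and Dmc1 (81.5 against 146.5 TPM). Of the other licensing genes, Orc2, Orc4, Orc5 and Cdt1 were lower there by smaller margins in TPM, and Orc3 was not lower. In the deposited normalized counts all of these other genes were higher there, such as Orc2 (5472 against 4952) and Cdt1 (1621 against 1484). The part of these markers in the results was not tested. In these bulk libraries a lower share of cells that express a gene and less RNA per cell cannot be told apart.

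Compared with Stra8-deficient cells, high-STRA8 cells had more RNA of 5 of the 9 licensing genes and less of none. Cdc6 was 6.77-fold higher, Orc1 3.24-fold, Gmnn 3.12-fold, Orc6 2.17-fold and Orc4 1.89-fold, while Orc2, Orc3, Orc5 and Cdt1 did not pass the test, at log2 differences of 0.14 to 0.23. Over all genes tested, 18.8% were called higher and 18.3% lower. Low-STRA8 cells had more RNA of Cdc6, Gmnn, Orc6, Orc1 and Cdt1 than Stra8-deficient cells, again 5 of 9. Of all genes, 10.2% were called higher and 13.9% lower. From low-STRA8 to high-STRA8 cells 3 genes rose (Orc1, Orc4 and Gmnn) and 1 fell (Cdt1), with 21.4% of all genes called higher and 18.3% lower. Calls are those with a Benjamini-Hochberg adjusted p under 0.05 in edgeR's quasi-likelihood test over all genes. Each group enters 2 of these comparisons, so the comparisons are not independent of each other.

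**Figure D1:**
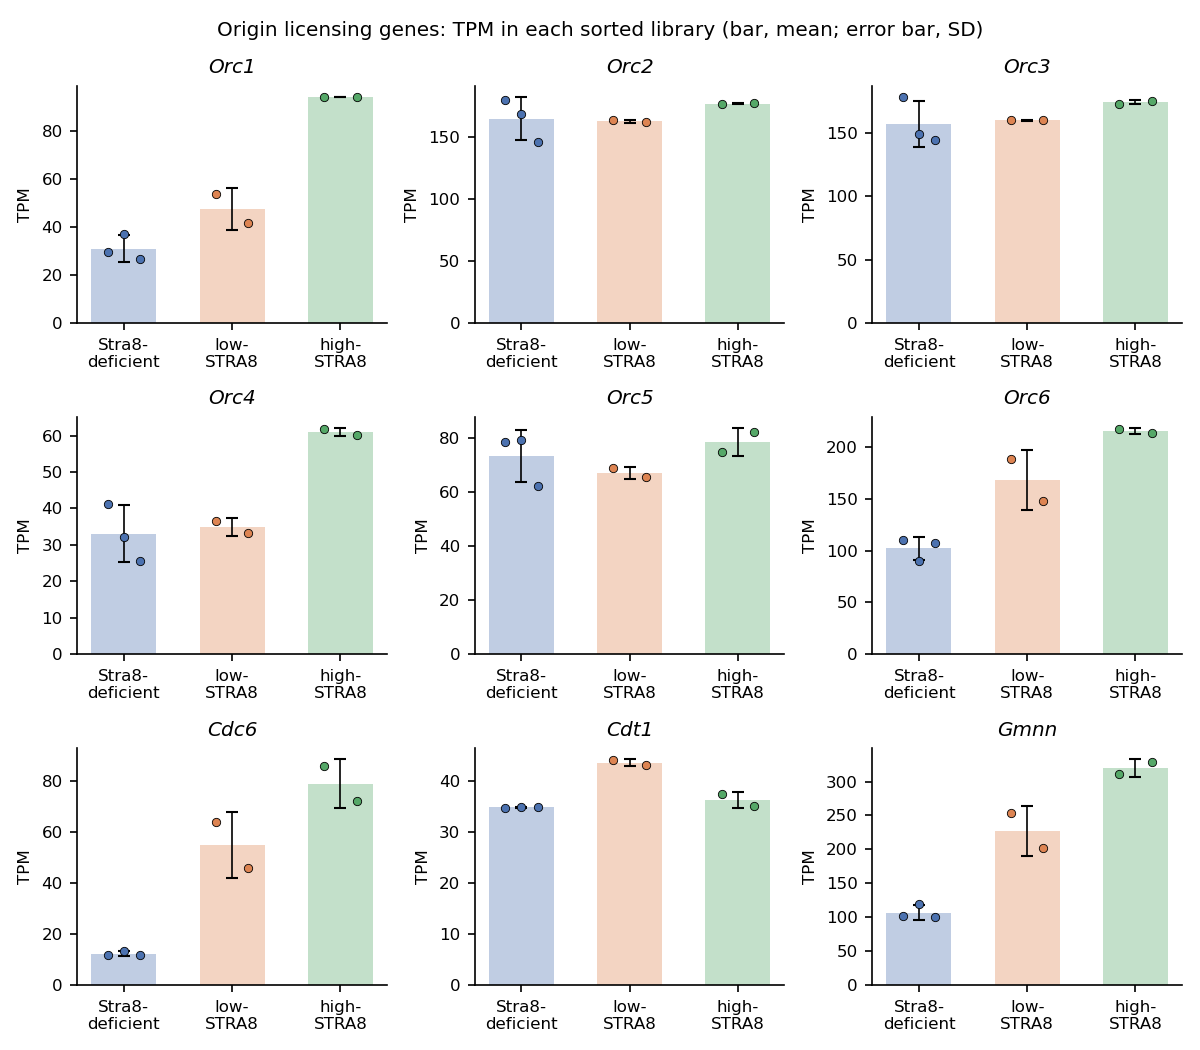
TPM of the 9 licensing genes in each of the 7 RNA-seq libraries, with bars at the group mean and error bars of 1 SD (n = 3, 2 and 2). Cdc6, Gmnn, Orc1 and Orc6 step up from Stra8-deficient to low-STRA8 to high-STRA8 libraries, Orc4 is higher in the high-STRA8 libraries, Cdt1 is highest in the low-STRA8 libraries, and Orc2, Orc3 and Orc5 lie close together in all groups.

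At the promoters, a gene was taken as bound when a FLAG summit lay within 1 kb of the start of one of its protein-coding transcripts in at least 2 of the 3 FLAG/FLAG libraries and in none of the 3 wild-type libraries, the criterion the authors used. By it, Orc3, Orc4, Orc6, Cdc6 and Gmnn were bound, 5 of 9, against 22.4% of the 12545 genes over 1 TPM in at least 1 library. Only Orc4 had a summit in all 3 FLAG/FLAG libraries. Orc1, Orc2 and Cdt1 had one in FLAG/FLAG replicate 1 alone, the library with the most summits, and Orc5 had none. The 3 FLAG/FLAG libraries held 5687, 3299 and 2035 summits, and 8, 4 and 2 of the licensing genes. The wild-type libraries held 798, 45 and 164 summits and none at a licensing gene. Without FLAG/FLAG replicate 1 and with both others required, only Orc4 remained bound; without replicate 2, Orc4 and Cdc6; and without replicate 3, whose library was made with a different kit, Orc3, Orc4, Orc6 and Gmnn. Of all bound genes tested, 47.7% were called higher in high-STRA8 cells relative to Stra8-deficient cells and 5.73% lower, against 10.5% and 21.9% of genes not bound. Of the bound licensing genes, 4 of 5 were called higher (Orc4, Orc6, Cdc6, Gmnn), and of the others 1 of 4 (Orc1).

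**Figure D2:**
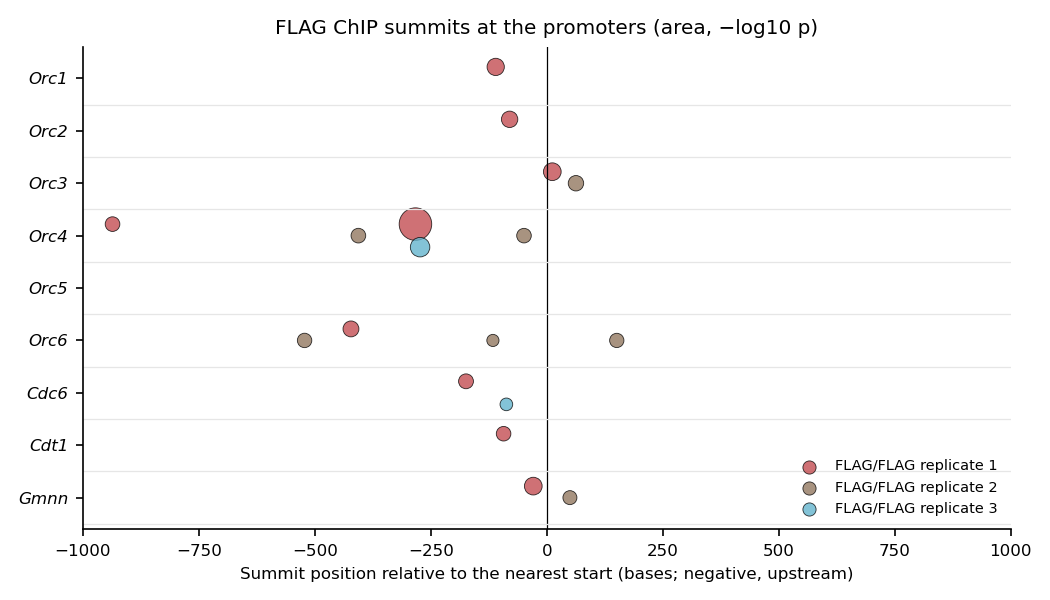
FLAG ChIP summits within 1000 bases of the starts of the licensing genes, with the distance from the nearest annotated start on the x axis (bases, upstream negative) and point area in proportion to the peak caller's −log10 p. Each colour is 1 FLAG/FLAG library. Orc4 is the only gene with points of all 3 libraries, and the largest point, 48.8, is the Orc4 summit of FLAG/FLAG replicate 1.

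The promoters were also searched on both strands for 2 kinds of letters. CNCCTCAG is the sequence that the study found enriched under its summits. TTTCCCGC, TTTCGCGC, TTTGCCGC and TTTGGCGC are forms of the site of E2F, the factor family that drives S-phase genes in cycling cells, and the 2 kinds share no match. CNCCTCAG occurred within 2 kb centred on a start in 46.3% of expressed genes, in 61.7% of bound and 41.8% of unbound ones. It occurred there in 5 of the 8 licensing genes that have an entry in the RefSeq promoter table (GRCm38.p6): Orc2, Orc3, Orc4, Orc6 and Cdc6. In the 300 bases of that table, from 250 before to 50 after the start, it was in none of the 8, and in 11.3% of expressed genes. An E2F form was in the same 300 bases of Orc1, Orc3, Cdc6 and Cdt1, 4 of 8, and in 4.82% of expressed genes. Within 2 kb it was in the same 4 of 8, against 15.9% of expressed genes and 22.5% of bound ones. Gmnn has no entry in the table and was left out of these counts of licensing genes.

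Orc1, an ATPase subunit of the complex (chr4:108579454-108614833, plus strand; coordinates are mm10 throughout), was at 29.5, 37.2 and 26.6 TPM in the Stra8-deficient libraries, 53.9 and 41.6 TPM in low-STRA8 and 94.3 and 94.2 TPM in high-STRA8 libraries. The groups did not overlap and rose in that order. High-STRA8 cells exceeded Stra8-deficient cells by 1.69 ± 0.15 on the log2 scale (SE, adjusted p = 0.000128) and low-STRA8 cells by 0.89 ± 0.16 (adjusted p = 0.00433), and low-STRA8 cells exceeded Stra8-deficient cells by 0.81 ± 0.15 (adjusted p = 0.00757). Its single summit lay 110 bases upstream of the start, with a −log10 p of 13.8 that was above 38.8% of the 4603 genes with a promoter summit in that library. The same summit lay within 1 kb of the start of Prpf38a, a splicing factor gene on the other strand, whose RNA differed by 0.21 on the log2 scale between high-STRA8 and Stra8-deficient cells (adjusted p = 0.133). The 80 bases before the Orc1 start are shown because they hold its E2F form, in capitals, centred 23 bases before the start; 31 of them lie in an exon of another annotated Orc1 transcript:

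Orc1 promoter, chr4:108579374-108579453, plus strand: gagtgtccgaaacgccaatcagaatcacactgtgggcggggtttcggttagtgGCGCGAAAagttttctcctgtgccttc

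Orc2 and Orc3, core subunits that bind each other in the complex, had the highest levels of the 9 genes in Stra8-deficient cells. Orc2 (chr1:58462771-58505109, minus strand) was at 180 to 146 TPM in Stra8-deficient, 163 and 162 TPM in low-STRA8 and 177 and 177 TPM in high-STRA8 libraries. Orc3 (chr4:34570796-34614944, minus strand) was at 178, 149 and 144 TPM, 160 and 160 TPM, and 173 and 175 TPM. The high-STRA8 values of both genes fell inside the Stra8-deficient range. The fitted difference between high-STRA8 and Stra8-deficient cells was 0.14 ± 0.09 for Orc2 (adjusted p = 0.254) and 0.23 ± 0.10 for Orc3 (adjusted p = 0.115). Without Stra8-deficient replicate 1, the library with the highest level of both, Orc3 passed the threshold in both comparisons with Stra8-deficient cells (adjusted p = 0.0239 for high-STRA8 and 0.0456 for low-STRA8). Between high-STRA8 and low-STRA8 cells neither passed the test (adjusted p = 0.809 and 0.932), although on the TPM scale the 2 high-STRA8 libraries lay above the 2 low-STRA8 libraries for each.

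Orc3 was bound in FLAG/FLAG replicates 1 and 2, with summits 12 bases downstream of its earlier start and 63 bases downstream of its later one. Their −log10 p was 14.5 and 11.0. These summits also lay within 1 kb of the start of Rars2, which encodes mitochondrial arginyl-tRNA synthetase and whose RNA differed by 0.17 (adjusted p = 0.188). The estimated split between the 2 Orc3 transcripts was unlike in the 2 high-STRA8 libraries: ENSMUST00000108142.7, the one with the later start, took 24.0% of Orc3 TPM in replicate 1 and 65.8% in replicate 2, against 24.2% to 37.3% in the other 5 libraries. The gene total did not move with it. The summits of Gmnn were not searched for CNCCTCAG. Of the matches at the other 8 licensing genes, the Orc3 match is the only one within 100 bases centred on a summit. It lies in an intron, 4 bases from the summit of FLAG/FLAG replicate 2, and the E2F form lies in a 5′ exon of Rars2. Both are shown on the Orc3 strand, with the matches in capitals:

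Orc3 intron, chr4:34614800-34614864, minus strand: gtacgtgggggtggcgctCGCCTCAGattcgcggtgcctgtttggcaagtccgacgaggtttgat

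Orc3 upstream, chr4:34614965-34614994, minus strand: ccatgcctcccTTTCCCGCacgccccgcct

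Orc4 (chr2:48902824-48949276, minus strand) encodes a further ATPase subunit of the complex. It was at 41.2, 32.2 and 25.7 TPM in the Stra8-deficient libraries, 36.7 and 33.2 TPM in low-STRA8 and 61.7 and 60.1 TPM in high-STRA8 libraries. Low-STRA8 values lay inside the Stra8-deficient range, and high-STRA8 values lay above all others. The difference from Stra8-deficient cells was 0.92 ± 0.19 in high-STRA8 cells (adjusted p = 0.00649) and 0.16 ± 0.19 in low-STRA8 cells (adjusted p = 0.582). High-STRA8 exceeded low-STRA8 cells by 0.76 ± 0.21 (adjusted p = 0.0230). That call was lost when low-STRA8 replicate 2 (adjusted p = 0.0832), high-STRA8 replicate 1 (0.0904) or high-STRA8 replicate 2 (0.101) was left out, with the difference at 0.70, 0.75 and 0.75.

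Orc4 had summits of −log10 p up to 48.8, 9.93 and 17.5 in FLAG/FLAG replicates 1, 2 and 3, the highest of the 9 genes in replicates 1 and 3 and below Orc3 (11.0) in replicate 2. These values lay above 91.1%, 19.0% and 63.0% of the genes with a promoter summit in the same library. The summits of replicates 1 and 3 lay 10 bases from each other, 283 and 273 bases upstream of the Orc4 start, and the highest summit of replicate 2 lay 406 bases upstream. All of these were also within 1 kb of the start of Mbd5, a methyl-binding-domain gene on the other strand, whose RNA differed by −0.29 between high-STRA8 and Stra8-deficient cells (adjusted p = 0.197) and was lower in low-STRA8 than in Stra8-deficient cells by 1.02 on the log2 scale (adjusted p = 0.00557). Mbd5 was higher in high-STRA8 than in low-STRA8 cells by 0.72 (adjusted p = 0.0147), beside 0.76 for Orc4. The 100 bases that hold the summit of replicate 1 are shown because it is the highest; they overlap no annotated exon and match neither kind of letters, so no base is in capitals. The CNCCTCAG match of Orc4 lies 221 bases downstream of the start:

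Orc4 upstream, chr2:48949550-48949649, minus strand: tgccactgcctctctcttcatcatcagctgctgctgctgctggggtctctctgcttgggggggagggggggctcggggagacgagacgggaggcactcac

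Orc5 (chr5:22486489-22550375, minus strand), another subunit of the core, was at 78.6, 79.2 and 62.1 TPM in Stra8-deficient libraries. It was at 68.9 and 65.7 TPM in low-STRA8 and 74.9 and 82.2 TPM in high-STRA8 libraries. The groups overlapped with Stra8-deficient cells in both comparisons. High-STRA8 differed from Stra8-deficient cells by 0.18 ± 0.11 (adjusted p = 0.250) and from low-STRA8 cells by 0.11 ± 0.13 (adjusted p = 0.522). The FLAG/FLAG summit nearest to its start was 765099 bases away. Orc5 was the only one of the 9 genes with neither a summit nor a called difference in any comparison, and Orc2 had no called difference either but had a summit 80 bases upstream of a start, at −log10 p of 12.4, in FLAG/FLAG replicate 1.

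Orc6, the smallest subunit, which is needed for helicase loading (chr8:85299689-85308278, plus strand), was at 110, 89.6 and 107 TPM in the Stra8-deficient libraries, 189 and 148 TPM in low-STRA8 and 218 and 214 TPM in high-STRA8 libraries. The groups did not overlap. High-STRA8 exceeded Stra8-deficient cells by 1.12 ± 0.13 (adjusted p = 0.000474) and low-STRA8 exceeded them by 0.91 ± 0.13 (adjusted p = 0.00330), while high-STRA8 and low-STRA8 cells differed by 0.20 ± 0.14 (adjusted p = 0.294). The transcript with the later start, ENSMUST00000034132.12, made up 96.6% to 99.1% of Orc6 TPM in every library. In FLAG/FLAG replicate 1 the Orc6 summit lay 422 bases upstream of the earlier start. In replicate 2 summits lay at −522 and −116 bases from that start and 151 bases downstream of the later one. All these summits had a −log10 p of at most 11.7. They were within 1 kb of the start of Vps35, which encodes a retromer subunit and was higher in high-STRA8 cells relative to Stra8-deficient cells by 0.59 (adjusted p = 0.00464). The 90 bases around the summit of replicate 1 are shown as an example of a summit without either kind of letters:

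Orc6 upstream, chr8:85299223-85299312, plus strand: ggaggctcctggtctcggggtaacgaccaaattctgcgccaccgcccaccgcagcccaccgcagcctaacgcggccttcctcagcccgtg

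Cdc6, the ATPase that binds ORC and is needed to load the helicase (chr11:98907801-98923936, plus strand), had the largest difference of the 9 genes. Its level was 11.6, 13.4 and 11.8 TPM in the Stra8-deficient libraries, 63.9 and 45.8 TPM in low-STRA8 and 85.6 and 71.98 TPM in high-STRA8 libraries. The deposited normalized counts gave the same picture, at 367 to 431, 1820 to 2281 and 2458 to 2948. The groups did not overlap, and the Stra8-deficient libraries lay lowest of any licensing gene. Cdc6 was higher by 2.76 ± 0.14 in high-STRA8 cells (adjusted p = 5.14e-05) and by 2.35 ± 0.14 in low-STRA8 cells (adjusted p = 0.000506) than in Stra8-deficient cells. High-STRA8 and low-STRA8 cells differed by 0.41 ± 0.15, just short of the threshold (adjusted p = 0.0588). The difference passed without low-STRA8 replicate 1 (0.61, adjusted p = 0.0188), DESeq2 gave an adjusted p of 0.0433, and over all alternatives the adjusted p ran from 0.0188 to 0.319.

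Of the 2 Cdc6 transcripts, ENSMUST00000093937.2, which has the later start, took 95.4% to 97.8% of Cdc6 TPM in every library. In FLAG/FLAG replicate 1 a summit lay between the 2 starts, 174 bases upstream of the later one (−log10 p of 10.2). In replicate 3 a summit lay 87 bases upstream of the earlier start (7.40). The latter was above only 4.36% of the genes with a promoter summit in that library. The stretch between the end of exon 1 of the longer form and the start of the shorter is shown because it begins 5 bases after the summit of replicate 1 and holds an E2F form, in capitals:

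Cdc6 between the 2 starts, chr11:98907982-98908149, plus strand: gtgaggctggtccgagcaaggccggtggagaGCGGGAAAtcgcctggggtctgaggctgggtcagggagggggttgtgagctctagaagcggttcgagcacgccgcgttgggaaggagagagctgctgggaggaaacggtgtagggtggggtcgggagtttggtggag

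Cdt1, which carries the MCM helicase to ORC and CDC6 (chr8:122568015-122573128, plus strand), followed another course. Its level was 34.7, 34.9 and 34.9 TPM in the Stra8-deficient libraries, 44.1 and 43.2 TPM in low-STRA8 and 37.5 and 35.2 TPM in high-STRA8 libraries. Low-STRA8 libraries lay above both other groups, and both high-STRA8 libraries lay above the Stra8-deficient ones by a narrower margin. Low-STRA8 exceeded Stra8-deficient cells by 0.53 ± 0.10 (adjusted p = 0.00793). High-STRA8 was lower than low-STRA8 cells by 0.38 on the log2 scale (SE 0.11, adjusted p = 0.0222), and high-STRA8 differed from Stra8-deficient cells by 0.14 ± 0.10 (adjusted p = 0.290). The fall from low-STRA8 to high-STRA8 was no longer called on log2(TPM + 1) values in limma (−0.26, adjusted p = 0.0603), nor without low-STRA8 replicate 2 (adjusted p = 0.0767), high-STRA8 replicate 1 (0.0950) or high-STRA8 replicate 2 (0.210). Its only summit, 93 bases upstream, was in FLAG/FLAG replicate 1, at −log10 p of 9.82. The 30 bases shown hold the E2F form of its 5′ exon, in capitals, which is centred 36 bases after the start and ends just before the start codon:

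Cdt1 exon 1, chr8:122568036-122568065, plus strand: ggaactaccttTTTGGCGCcatggcgcaaa

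Gmnn, the inhibitor of CDT1 (chr13:24751845-24761923, minus strand), was at 101, 119 and 99.6 TPM in the Stra8-deficient libraries, 253 and 202 TPM in low-STRA8 and 311 and 329 TPM in high-STRA8 libraries. The groups did not overlap, and Gmnn was the most abundant of the 9 genes in low-STRA8 and high-STRA8 cells. It was higher than in Stra8-deficient cells by 1.64 ± 0.11 in high-STRA8 (adjusted p = 6.49e-05) and by 1.27 ± 0.11 in low-STRA8 cells (adjusted p = 0.00149). The rise from low-STRA8 to high-STRA8 was 0.37 ± 0.12 (adjusted p = 0.0419), and was not called without Stra8-deficient replicate 3 (adjusted p = 0.0507), low-STRA8 replicate 2 (0.179), high-STRA8 replicate 1 (0.128) or high-STRA8 replicate 2 (0.235), nor without a filter on low TPM (0.0534). In FLAG/FLAG replicate 1 a summit lay 29 bases upstream of the earlier Gmnn start (−log10 p of 14.5). In replicate 2 a summit lay 50 bases downstream of the later start (9.04).

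**Figure D3:**
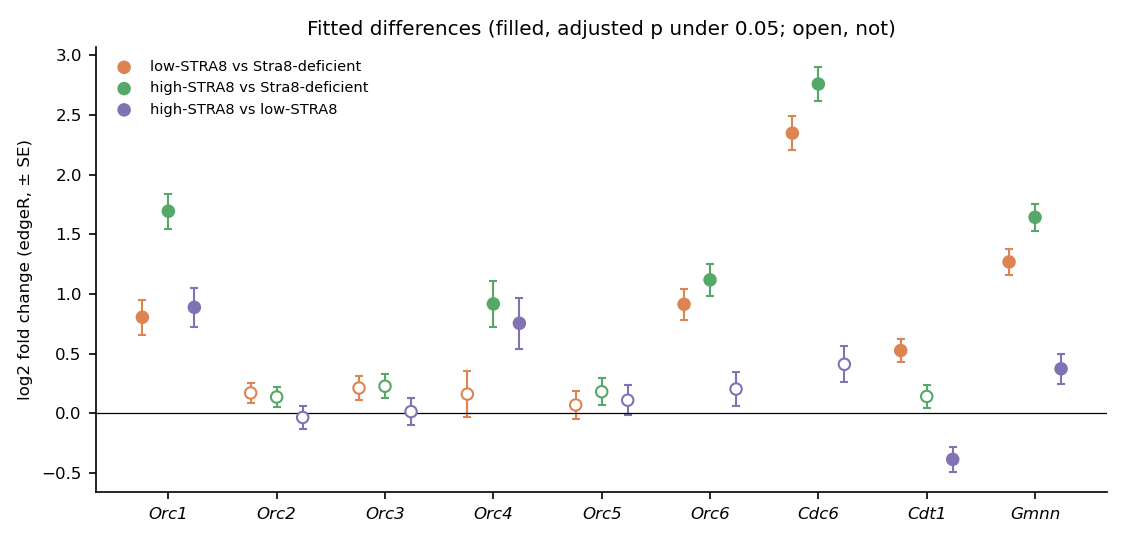
Fitted log2 fold change of each licensing gene in the 3 comparisons, with error bars of 1 SE. Filled points passed the threshold. The 5 genes with filled green points (high-STRA8 against Stra8-deficient) are Orc1, Orc4, Orc6, Cdc6 and Gmnn, and Cdt1 has a filled purple point below 0.

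The 5 genes that were higher in high-STRA8 cells relative to Stra8-deficient cells differed in how much of that difference low-STRA8 cells showed. The fitted log2 difference between low-STRA8 and Stra8-deficient cells was 85.1% of the full difference for Cdc6, 81.7% for Orc6, 77.3% for Gmnn, 47.6% for Orc1 and 17.6% for Orc4. These shares are a description, and differences between genes in them were not tested. They move with the scaling between libraries: for Orc1, limma on log2(TPM + 1) gave 0.61 of 1.58, against 0.81 of 1.69 in edgeR. By TPM ranges, 6 of 9 genes lay higher in every high-STRA8 than in every Stra8-deficient library (the 5 and Cdt1), against 27.9% of the 12545 expressed genes, and none lay lower, against 39.3%. Between low-STRA8 and Stra8-deficient libraries 5 lay higher, against 12.1%, and none lower, against 39.4%. Between high-STRA8 and low-STRA8 libraries 8 lay higher, against 44.2%, and 1 lower, against 30.4%. On the TPM scale the median of all genes stood at −0.15 between low-STRA8 and Stra8-deficient cells and at 0.11 between high-STRA8 and low-STRA8 cells in limma on log2(TPM + 1), against 0.03 and 0.01 in edgeR. Accordingly 15.5% of all calls between low-STRA8 and Stra8-deficient cells were in the higher direction on that scale, against 42.2% in edgeR. For high-STRA8 against Stra8-deficient cells these shares were 40.5% and 50.8%, and for high-STRA8 against low-STRA8 cells 63.6% and 53.9%.

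Within ORC the levels drew closer together. In Stra8-deficient libraries the most abundant subunit, Orc2, exceeded the least abundant, Orc1 or Orc4, 5.22-fold to 6.10-fold. In high-STRA8 libraries the most abundant, Orc6, exceeded the least abundant, Orc4, 3.53-fold and 3.56-fold, and low-STRA8 libraries lay between, at 5.15-fold and 4.88-fold. Orc1 made up 4.78% to 6.69% of the summed ORC TPM in Stra8-deficient, 8.03% and 6.82% in low-STRA8 and 11.8% and 11.7% in high-STRA8 libraries. The order of the 9 genes by mean level was Orc2, Orc3, Gmnn, Orc6, Orc5, Cdt1, Orc4, Orc1, Cdc6 in Stra8-deficient cells, where the library ranges of Orc2 and Orc3, of Gmnn and Orc6, and of Cdt1, Orc4 and Orc1 overlapped. In low-STRA8 cells it was Gmnn, Orc6, Orc2, Orc3, Orc5, Cdc6, Orc1, Cdt1, Orc4, where the range of Orc6 overlapped those of Orc2 and Orc3, and the range of Orc1 overlapped those of Cdc6 and Cdt1. In high-STRA8 cells it was Gmnn, Orc6, Orc2, Orc3, Orc1, Cdc6, Orc5, Orc4, Cdt1, and only Cdc6 and Orc5 overlapped. Cdc6 was thus last of 9 in Stra8-deficient cells, and Cdt1 last in high-STRA8 cells.

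The ratio of inhibitor to loader, Gmnn TPM over Cdt1 TPM within a library, does not depend on the scaling between libraries. It was 2.91, 3.41 and 2.85 in Stra8-deficient, 5.74 and 4.67 in low-STRA8 and 8.30 and 9.35 in high-STRA8 libraries. The groups did not overlap. On the log2 scale the mean was 1.61 ± 0.14 (SD, n = 3), 2.37 ± 0.21 (n = 2) and 3.14 ± 0.12 (n = 2). High-STRA8 exceeded Stra8-deficient cells by 1.53, a 2.89-fold higher ratio, low-STRA8 exceeded Stra8-deficient cells by 0.76, and high-STRA8 exceeded low-STRA8 cells by 0.77. Exact two-sided permutation tests over libraries gave p = 0.1, 0.1 and 0.333 (0.15, 0.15 and 0.333 after adjustment over the 3), which are the smallest values that groups of this size allow, so none could pass 0.05. The ratio is of RNA, and CDT1 and geminin are also controlled as proteins, which were not measured.

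**Figure D4:**
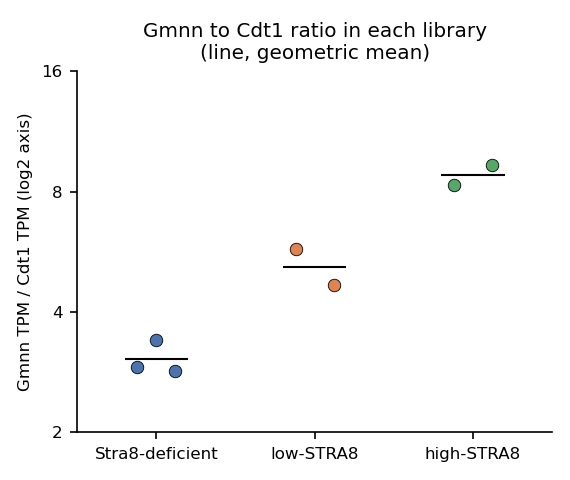
Ratio of Gmnn TPM to Cdt1 TPM in each library on a log2 axis, with a line at each group's geometric mean. Stra8-deficient libraries lie at 2.85 to 3.41, the low-STRA8 libraries at 4.67 and 5.74, and the high-STRA8 libraries at 8.30 and 9.35.

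Other genes of replication were described as lists of known genes by role. The MCM helicase list holds Mcm2 to Mcm7, and with them Mcmbp, Mcm8, Mcm9 and Mcmdc2. It had 8 of 10 genes called higher and none lower in high-STRA8 cells relative to Stra8-deficient cells. Of all genes, 18.8% were called higher and 18.3% lower. The list had a median log2 difference of 0.96, against −0.02 over all genes. Mcm4 (1.11), Mcm5 (1.53) and Mcm6 (0.95), subunits of the ring that is loaded, had the smallest adjusted p in the list (0.000186, 0.000220 and 0.000302). Low-STRA8 cells had 6 of the 10 called higher than Stra8-deficient cells (10.2% of all genes). On log2(TPM + 1) values limma called 3 of the 10 and 498 of all 12545 genes higher. Between high-STRA8 and low-STRA8 cells 2 of 10 were called higher, a share near the 21.4% of all genes. These were Mcm8 (adjusted p = 0.033) and Mcmdc2 (adjusted p = 0.0167), and none of Mcm2 to Mcm7 was called. In that comparison limma called 5 of 10 and 3134 of all 12545 genes higher.

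The origin firing list holds genes whose products turn loaded helicases into forks. In high-STRA8 cells relative to Stra8-deficient cells, 12 of 14 were called higher and none lower, against 18.8% and 18.3% of all genes. The list had a median of 1.31. Ticrr (2.52, adjusted p = 2.98e-05), Gins3 (2.91, 5.25e-05) and Cdc45 (2.16, 6.49e-05) led it. TICRR brings CDC45 to the helicase, and GINS3 is a subunit of the active helicase with CDC45 and MCM. From low-STRA8 to high-STRA8 cells 9 of 14 rose and none fell, against 21.4% and 18.3% of all genes. Between low-STRA8 and Stra8-deficient cells 8 were called higher and 1 lower, against 10.2% and 13.9% of all genes. On log2(TPM + 1) values limma gave 5 and 2, against 498 and 2712 of all 12545 genes. Median differences of the 9 licensing genes over the same comparisons were 0.92, 0.20 and 0.53, in the order high-STRA8 against Stra8-deficient, high-STRA8 against low-STRA8, and low-STRA8 against Stra8-deficient.

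Of the genes that control licensing, 21 of 23 were tested (Ccna1 and Gmnc were not). In high-STRA8 cells relative to Stra8-deficient cells 9 were called higher and 7 lower, against 18.8% and 18.3% of all genes. The list had a median of 0.36. Ccne2 (3.14, adjusted p = 9.67e-05), a cyclin partner of CDK2, Cul1 (1.12, 0.000103), the scaffold of SCF ubiquitin ligases, and Dtl (1.99, 0.000161), which recognises CDT1 for the CUL4 ligase, had the smallest adjusted p. All 3 were also called higher in high-STRA8 than in low-STRA8 cells (adjusted p = 0.00992, 0.00163 and 0.00943). Between low-STRA8 and Stra8-deficient cells the list had 6 called higher and 1 lower, against 10.2% and 13.9% of all genes. Its median was 0.08. On log2(TPM + 1) values limma called 2 of the list higher and 3 lower (median −0.12), against 498 and 2712 of all 12545 genes. In the E2F and RB families 7 of 13 were called higher and 3 lower in high-STRA8 cells relative to Stra8-deficient cells, against 18.8% and 18.3% of all genes, so that the count of lower calls was near that of genes at large. E2f4 (0.78, adjusted p = 0.000617), E2f1 (1.56, 0.000685) and E2f8 (2.45, 0.000807) led that list. E2f1 is known as an activator of S-phase genes, and E2f4 and E2f8 as repressors. E2f1 was at 30.8 to 50.9, 46.0 and 62.3, and 106 and 109 TPM in the libraries of Stra8-deficient, low-STRA8 and high-STRA8 cells.

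Genes of G2, mitosis and proliferation did not move one way. High-STRA8 cells had 5 of 14 called higher and 6 lower than Stra8-deficient cells, against 18.8% and 18.3% of all genes. Low-STRA8 cells had none called higher and 8 lower than Stra8-deficient cells, against 10.2% and 13.9% of all genes. Mki67, a proliferation marker, was at 15.9 to 18.6 TPM in Stra8-deficient, 2.38 and 2.75 TPM in low-STRA8 and 49.2 and 58.5 TPM in high-STRA8 libraries. Ccnb1, the mitotic cyclin B1, and Plk1, a mitotic kinase, were lower in high-STRA8 cells relative to Stra8-deficient cells with log2 differences of −2.14 and −2.57 (adjusted p = 8.3e-05 and 0.000111). In low-STRA8 cells Mki67 was thus at its lowest while Cdc6, Orc6 and Gmnn stood above the Stra8-deficient libraries. The list was not uniform there: Top2a (0.70), Cdk1 (0.34) and Bub1 (0.15) had fitted differences above 0 from Stra8-deficient cells. None of these passed the threshold.

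**Figure D5:**
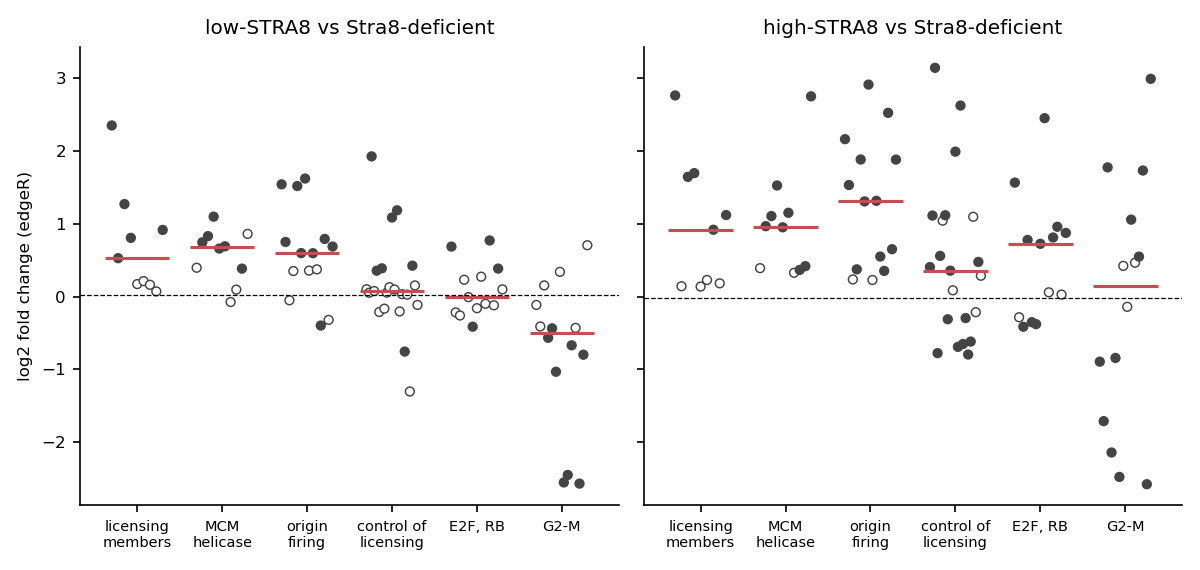
Fitted log2 fold change of each gene of the 6 lists in low-STRA8 (left) and high-STRA8 (right) against Stra8-deficient cells, with called genes filled, red lines at the list medians and a dashed line at the median of all genes. In the right panel the medians are 0.92 for the licensing genes, 0.96 for the MCM list and 1.31 for the firing list. In the left panel the G2-M list has a median of −0.50.

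For each licensing gene, the gene with the most similar course over the 7 libraries was sought among 9643 others with a mean of at least 5 TPM, by the root-mean-square difference of log2(TPM + 1) centred on each gene's mean. The nearest was Dnajc9 to Orc1 (0.08), Pank2 to Orc2 (0.04), Efcab11 to Orc3 (0.03), Naa50 to Orc4 (0.03), Birc2 to Orc5 (0.06), Pigp to Orc6 (0.08), Nrm to Cdc6 (0.18), Golt1b to Cdt1 (0.05) and Pole2 to Gmnn (0.05). The course of Cdc6 was the least matched, and it was also the gene with the widest spread about its own mean. Golt1b shared with Cdt1 a higher level in low-STRA8 libraries (80.4 and 78.3 TPM) than in Stra8-deficient (59.9 to 65.9 TPM) and high-STRA8 libraries (66.7 and 60.9 TPM).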

How the data were processed

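RNA-seq was made from sorted preleptotene cells (7 libraries) and FLAG ChIP-seq from whole testes (6 libraries, each with its input). Per the methods and the submitters' processing notes, the authors estimated transcript abundance with kallisto 0.43.0, summed it to genes and normalized with DESeq2 1.18.1. The authors deposited TPM, normalized counts (a signal: counts divided by size factors), and per transcript the estimated counts with effective lengths. For ChIP-seq the authors aligned reads to mm10 with Bowtie 1.2.0 and called peaks in each library against its own input with MACS2 2.1.1.20160309, and the deposited summits carry a −log10 p. The summits were assigned to transcript starts of GENCODE release M21, whereas the authors used the GENCODE basic set of Ensembl release 90.

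Estimated counts were summed to genes (12527 of the 12545 genes over 1 TPM in at least 1 library were joined; joined genes held 90.67% to 93.41% of counts), rounded, and tested with edgeR 4.0.16 (TMM, robust quasi-likelihood F test) in 1 fit of 7 libraries and 3 groups. Adjusted p-values are Benjamini-Hochberg over all 12527 genes, and SE is the fold change over the root of F. The labels do not say that libraries of a group come from separate mice in every case, so p-values measure the spread between these libraries. Alternatives used DESeq2 1.42.0, limma 3.58.1 on log2(TPM + 1) and log2(TPM + 0.1), other size factors, no filter, effective-length offsets, only 2 groups, a replicate block, and each library left out. Fits were tested on simulated data. The reads carry no molecular identifiers. Named genes were all 9 licensing genes, the 3 genes of each list with the smallest adjusted p in high-STRA8 against Stra8-deficient cells, genes that share a summit, Stra8, and 1 nearest gene each. The genes and lists were chosen with earlier results of these data known. Sequences come from GRCm38.p6, the assembly of mm10.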

Additional observations from a re-analysis of the deposited data

How the results depend on the processing

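All 5 calls of high-STRA8 against Stra8-deficient cells (Orc1, Orc4, Orc6, Cdc6, Gmnn) and all 5 of low-STRA8 against Stra8-deficient cells (Orc1, Orc6, Cdc6, Cdt1, Gmnn) passed under each of the 15 alternatives run, and no licensing gene was called lower. Between high-STRA8 and low-STRA8 cells, leaving out 1 library gave 1 to 4 genes called higher and 0 to 1 lower, against 3 and 1. Both limma alternatives gave 0 called lower. Orc1 passed in all 16 alternatives of that comparison. The number of bound licensing genes, 5 as reported, was 2 with summits of −log10 p of at least 10 (Orc3, Orc4), 8 with 1 FLAG/FLAG library enough, 1 with all 3 required (Orc4), and 1 to 4 without 1 FLAG/FLAG library; a window of 500 bp or no removal of wild-type summits left 5. Among the 8 licensing genes other than Gmnn, CNCCTCAG was found in 5 within 2 kb, 0 in 300 bases and 1 at the summits. The causes were not tested.

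Signs turned only for differences near 0 that were not called. For Orc2, high-STRA8 against low-STRA8 was −0.03 as reported, 0.12 in both limma fits, 0.0040 with length offsets and 0.0037 without low-STRA8 replicate 2; and its range without 1 library was −0.0708 to 0.0037; low-STRA8 against Stra8-deficient became −0.0124 in both limma fits. For Orc3, high-STRA8 against low-STRA8 became −0.0144 with only the 2 groups and −0.0132 with crossed numbers, and without 1 library ran from −0.0225 to 0.0536, with −0.0039 without high-STRA8 replicate 2. For Orc5, low-STRA8 against Stra8-deficient became −0.11 in both limma fits and −0.0126 under the replicate block.

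Libraries with the same number share only that number: their deviations from the group means correlated at −0.17 to −0.03. With the replicate block, 5 genes were called higher in each comparison with Stra8-deficient cells, and between high-STRA8 and low-STRA8 cells 2 were higher and 1 lower, Gmnn being lost (adjusted p = 0.0792). Crossed numbers in those 4 libraries, chosen after seeing the data, gave 3 higher and 1 lower.

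Over all genes, calls between low-STRA8 and Stra8-deficient cells were 1272 higher and 1740 lower, against 673 and 1129 with only those 2 groups and 498 and 2712 in limma on log2(TPM + 1). Leaving out 1 library moved the calls in each comparison: high-STRA8 against low-STRA8 from 2676 and 2288 to 1151 and 484, and high-STRA8 against Stra8-deficient from 2360 and 2289 to 1252 and 728, both without high-STRA8 replicate 2, and low-STRA8 against Stra8-deficient to 618 and 1088 without Stra8-deficient replicate 2. The shares of all genes given beside the licensing genes move with these totals. Groups of 2 and 3 libraries are a further limit: no exact two-sided test between 2 of the groups could pass 0.05.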
